A study of Mus musculus with 9 samples.

Results

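Idh1, Me1, G6pdx, Pgd, Taldo1 and Tkt encode enzymes that make cytosolic NADPH or shuttle the sugars of the pathway that does. They were taken by name from 9 arrays of mouse liver, with every non-control probe that carries 1 of the 6 gene names. This gave 13 of the 56605 probes and 6 of the 37074 gene names on the array. Of the 13 probes, 5 probes of 4 genes (Idh1, Me1, Taldo1 and Tkt) were detected throughout at least 1 of the 3 groups and entered the fit, in which 6593 probes were tested. A probe counts as detected on an array where Feature Extraction, the scanner software, marks it as well above background. Idh1 was chosen by its measured values: it was already known to be far lower in AAV-GP73 than in AAV-V livers on these arrays. Its values are therefore given as a description, with no p, and the others were chosen as its companions in the pathway.

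NADPH carries the reducing power for fatty acid and sterol synthesis and for the recycling of glutathione and thioredoxin. In the liver cytosol it comes from isocitrate by IDH1, from malate by malic enzyme (ME1), and from glucose 6-phosphate by the oxidative arm of the pentose phosphate pathway, whose dehydrogenases are G6PDX and PGD. Transaldolase (TALDO1) and transketolase (TKT) form the non-oxidative arm, which exchanges carbon between pentose and glycolytic sugars and makes no NADPH itself.

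The mice were males of the C57BL/6N strain that had received a hepatocyte-specific adeno-associated virus (AAV) by tail vein. AAV-V mice received the empty vector and a normal diet, AAV-GP73 mice received the virus expressing GP73 and a normal diet, and AAV-V HFD mice received the empty vector and a high-fat diet (HFD). GP73 is a Golgi protein that is encoded by Golm1. Each group had 3 arrays, all labelled 12 months, which the study counts from the injection and the labels give as age. The length of HFD feeding differs between the study's results and its methods. Whether an array held RNA of 1 mouse or of a pool, and whether the 3 arrays of a group were separate animals, is not stated, so that p-values measure the spread between these arrays only. Liver pieces hold several cell types, and fewer cells of a type cannot be told apart from less RNA per cell.

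The member probes were 60 bases long. The sequences of 5 member probes that lie in coding sequence are shown because the readings of Idh1, Me1, Taldo1 and Tkt turn on which stretch of the transcript a probe meets. All are 5′ to 3′ in the sense of the transcript.
Idh1, transcript base 229: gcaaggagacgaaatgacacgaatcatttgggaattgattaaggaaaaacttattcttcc
Idh1, transcript base 1358: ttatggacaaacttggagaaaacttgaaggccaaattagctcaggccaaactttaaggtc
Me1, transcript base 1729: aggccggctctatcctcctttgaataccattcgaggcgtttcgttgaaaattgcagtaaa
Taldo1, transcript base 693: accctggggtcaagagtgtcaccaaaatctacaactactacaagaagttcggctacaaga
Tkt, transcript base 1957: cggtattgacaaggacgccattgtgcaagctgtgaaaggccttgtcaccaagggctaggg
In mm9, the build of the array files, the Idh1 probes lie on the minus strand at chr1:65221829-65221888 (base 229 of NM_001111320) and chr1:65206035-65206094 (base 1358 of NM_010497). The former lies near the start of the coding sequence and the latter spans its stop codon. Neither shared a run of more than 14 bases with any of the 56603 probes of other genes. The Taldo1 probe at base 693 covers 175 genomic bases on the plus strand (chr7:148587650-148587824), and so crosses an intron, and the other Taldo1 probe lies at base 1164 (chr7:148588764-148588823). The Tkt probe at base 1957 lies at chr14:31386641-31386700 on the plus strand and runs over the stop codon, and the Me1 probes at bases 1729 and 3168 lie at chr9:86480571-86480630 and chr9:86475077-86475136 on the minus strand.

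Signals are given as log2 of the background-subtracted signal, shifted so that the 75th percentile over the 2669 probes detected on all 9 arrays was equal between arrays (the scaled log2 signal). The arrays were unequal in brightness. Between 6.67% and 7.21% of probes were detected on AAV-V arrays, 12.5% to 14.9% on AAV-GP73 arrays and 10.2% to 13.2% on AAV-V HFD arrays. The lowest scaled log2 signal that counted as detected lay between 3.76 and 3.94 on AAV-V arrays, against 1.85 to 2.49 on AAV-GP73 and 2.04 to 2.81 on AAV-V HFD arrays. AAV-V and AAV-GP73 arrays shared a slide while AAV-V HFD arrays had their own, and the effect of diet cannot be told apart from that of the slide. The median log2 fold change of all probes tested against AAV-V was 0.64 (AAV-GP73) and 0.41 (AAV-V HFD), and both comparisons share the AAV-V arrays. Golm1 had 1 probe, which was detected on none of the 9 arrays, so that the label of AAV-GP73 was not checked by its transgene. Of the hepatocyte markers, 5 were on the array, and 5 were detected on every AAV-V and AAV-GP73 array and 4 on every AAV-V HFD array.

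Idh1, as read by its probe at base 229, was lower in AAV-GP73 livers, and in AAV-V HFD livers, than in AAV-V livers. The probe at base 229 was detected on all 9 arrays. Its scaled log2 signal was 5.82, 6.68 and 7.41 on the AAV-V arrays, 3.43, 2.90 and 2.75 on the AAV-GP73 arrays, and 4.11, 2.94 and 3.94 on the AAV-V HFD arrays. Every AAV-V array lay above all other arrays, and the AAV-GP73 and AAV-V HFD arrays overlapped. The AAV-V arrays themselves spread over more than the other groups, with an SD of 0.80 against 0.36 in AAV-GP73 (n = 3) and 0.63 in AAV-V HFD (n = 3).

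The log2 fold change of this Idh1 probe was -3.61 (standard error 0.43) in AAV-GP73 against AAV-V, 12.2-fold lower. In AAV-V HFD against AAV-V it was -2.98 (standard error 0.43), 7.88-fold lower. Relative to the median of all probes tested, the differences were -4.25 and -3.39. Between AAV-GP73 and AAV-V HFD the difference was -0.63, and the arrays overlapped.

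The direction of Idh1 was the same under every scaling run, and its size was not. Before any scaling its processed signal was 28.1 to 93.0 units in AAV-V, 10.1 to 14.4 in AAV-GP73 and 11.5 to 29.2 in AAV-V HFD, so that 1 AAV-V HFD array lay inside the AAV-V range on that scale. With the 75th percentile taken over all non-control probes the log2 fold changes were -2.62 (AAV-GP73) and -2.02 (AAV-V HFD), and with the spike-in controls they were -1.93 and -1.64. The Idh1 probe at base 1358 gave no further reading, since it was detected on 0 of the 9 arrays, with scaled log2 signals of 1.08 to 2.23.

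**Figure D1:**
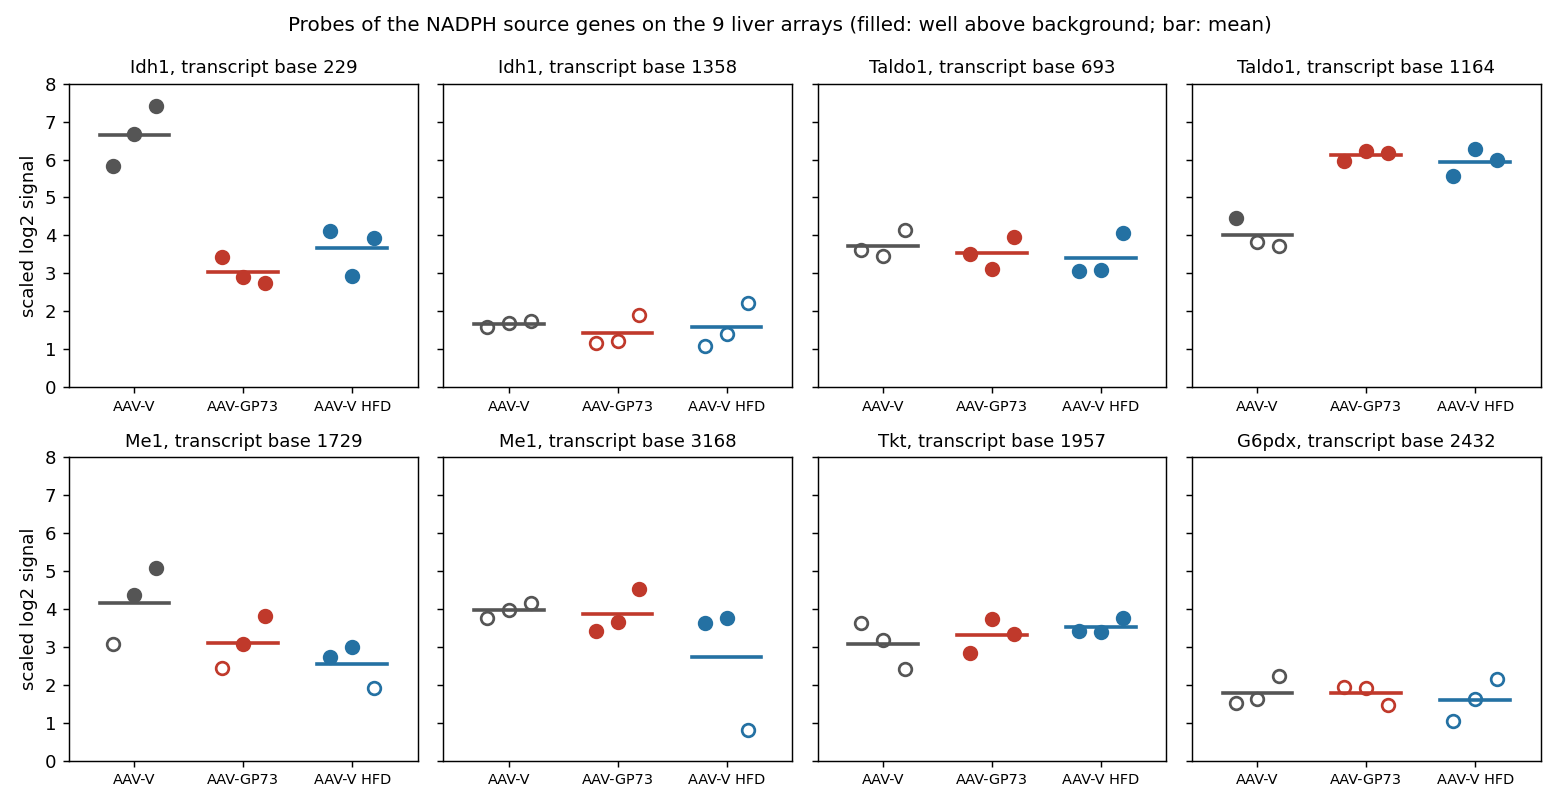
Scaled log2 signal of 8 member probes on each array, by group, with filled points where the probe was detected on that array, open points where it was not, and bars at the group means (n = 3). Idh1 at base 229 is filled on all 9 arrays and higher on the 3 AAV-V arrays (5.82 to 7.41) than on the others (2.75 to 4.11), while Taldo1 at base 1164 is higher on the other 6 arrays (5.56 to 6.28) than on the AAV-V arrays (3.73 to 4.45).

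Many genes followed the order of the 9 arrays that Idh1 showed. Among the 2428 other genes whose brightest probe was detected on all arrays, 589 (24.3%) had a Pearson correlation with Idh1 of at least 0.9 and 222 (9.14%) of at most -0.9. These points share the arrays, their scaling and the split between AAV-V and the others, and the correlations are a description only. The most alike were the transcript AK079976 (r = 0.994), Plaa (0.993), Asb18 (0.992), Slc2a9 (0.991) and Atp5g2 (0.990). Slc2a9 is a urate transporter and Atp5g2 encodes a subunit of the mitochondrial ATP synthase. The most opposed were a transcript named ENSMUST00000121828 (r = -0.994), the nuclear receptor gene Rxra (-0.989), Apopt1 (-0.987), the proteasome subunit gene Psma2 (-0.986) and Bpifc (-0.984).

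Me1, the cytosolic malic enzyme, gave no difference that passed the test. Its probe at base 3168 had scaled log2 signals of 3.77, 3.97 and 4.16 in AAV-V, where it was detected on no array, of 3.43, 3.66 and 4.52 in AAV-GP73, and of 3.65, 3.76 and 0.80 in AAV-V HFD. A single AAV-V HFD array was thus far below the others and was the only array of the 6 brighter ones without detection. The measured difference was -0.10 in AAV-GP73 (limma, adjusted p = 0.903) and -1.23 in AAV-V HFD (adjusted p = 0.124), and without that array it was -0.26 in AAV-V HFD (adjusted p = 0.544). In AAV-GP73 the sign turned to 0.89 and 1.58 under scaling by all probes and by spike-ins, and in AAV-V HFD to 0.10 under spike-ins.

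The other Me1 probe, at base 1729, was detected on 2 of 3 arrays in each group and so was not tested. It read 3.07, 4.37 and 5.08 in AAV-V, 2.45, 3.08 and 3.82 in AAV-GP73, and 2.73, 3.00 and 1.91 in AAV-V HFD. All 3 AAV-V HFD values lay below the AAV-V range, and the AAV-GP73 values overlapped it.

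Taldo1, the transaldolase gene of the non-oxidative arm, had a probe that rose in both comparisons and a probe that did not pass the test. At base 1164 the scaled log2 signals were 4.45, 3.82 and 3.73 in AAV-V, 5.96, 6.22 and 6.16 in AAV-GP73, and 5.56, 6.28 and 5.98 in AAV-V HFD. The AAV-V arrays lay below all others. On only 1 of them was the probe detected, so that it entered the test through the other groups. The log2 fold change was 2.12 in AAV-GP73 against AAV-V, 4.34-fold higher (standard error 0.30, adjusted p = 0.000194 from limma). In AAV-V HFD against AAV-V it was 1.94, 3.84-fold higher (standard error 0.30, adjusted p = 0.000643 from limma). The call was lost in both with normexp background subtraction on an offset of 50, at 0.14 (adjusted p = 0.523) and 0.04 (adjusted p = 0.859).

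At base 693 of the same Taldo1 transcript the signals were 3.60, 3.45 and 4.14 in AAV-V, 3.50, 3.12 and 3.95 in AAV-GP73, and 3.05, 3.09 and 4.05 in AAV-V HFD. The groups overlapped, and the probe was detected on no AAV-V array and on all 6 others. The measured difference was -0.20 in AAV-GP73 (95% interval -0.98 to 0.57, adjusted p = 0.627 from limma) and -0.33 in AAV-V HFD (-1.10 to 0.44, adjusted p = 0.449), and both turned positive under scaling by all probes or by spike-ins.

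The gap between the Taldo1 probes, later minus earlier, does not depend on the scaling by a percentile or by spike-ins. It was 0.84, 0.37 and -0.40 in AAV-V, 2.46, 3.11 and 2.21 in AAV-GP73, and 2.50, 3.18 and 1.93 in AAV-V HFD, without overlap between AAV-V and either other group. Of the AAV-V arrays, however, the earlier Taldo1 probe was detected on none and the later on 1. The AAV-V gaps are thus mostly differences between signals that did not count as detected, and their size is uncertain. For Me1 the gap was 0.69, -0.40 and -0.92 in AAV-V, 0.99, 0.58 and 0.70 in AAV-GP73, and 0.91, 0.76 and -1.11 in AAV-V HFD, with overlap. Such gaps moved with the groups beyond the members. Over 60 transcripts with probes at least 300 bases apart that were detected on all 9 arrays, the median gap was 0.94 to 1.14 on AAV-V arrays, 1.60 to 1.64 on AAV-GP73 arrays and 1.57 to 1.72 on AAV-V HFD arrays. It was larger in AAV-GP73 than in AAV-V for 44 of the 60 transcripts and in AAV-V HFD for 46. The Idh1 probe at base 229 is itself an early probe, and the part of probe position in its difference was not tested.

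**Figure D2:**
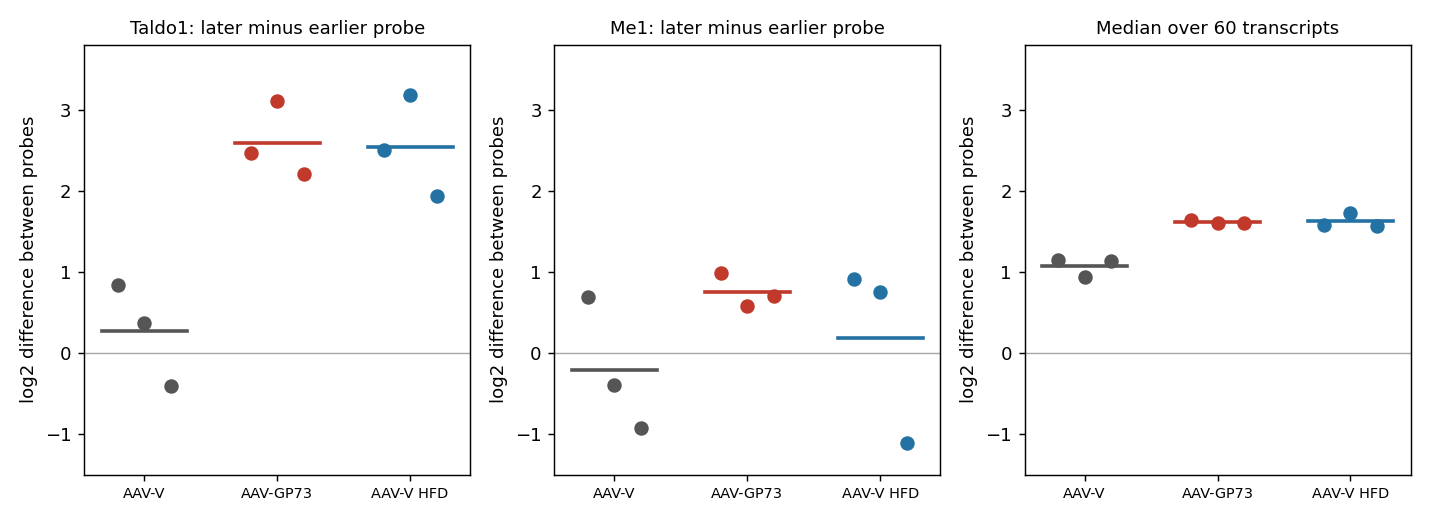
Log2 signal of the later probe minus that of the earlier probe of the same transcript on each array, for Taldo1, for Me1 and as the median over 60 transcripts, with bars at the group means (n = 3). The Taldo1 gap is 1.93 to 3.18 on the AAV-GP73 and AAV-V HFD arrays and at most 0.84 on the AAV-V arrays, and the median over 60 transcripts moves the same way over a smaller range, from 0.94 to 1.72. Points are filled whether or not the probes were detected, and on AAV-V arrays the Taldo1 probes mostly were not.

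Tkt, the transketolase gene, gave no difference that passed the test. Its probe at base 1957 read 3.64, 3.20 and 2.42 in AAV-V, where it was detected on no array, 2.85, 3.73 and 3.34 in AAV-GP73, and 3.42, 3.40 and 3.75 in AAV-V HFD. The groups overlapped. The measured difference was 0.22 in AAV-GP73 (95% interval -0.55 to 0.99, adjusted p = 0.595 from limma) and 0.44 in AAV-V HFD (-0.33 to 1.21, adjusted p = 0.307). Scaling by all probes made calls of these, at 1.21 and 1.39, and normexp turned their sign. Of the other 2 Tkt probes, the probe at base 108 was detected on no array and the probe at base 3037 on 1 AAV-V array only, at 4.71 against 1.82 and 1.96 on the other AAV-V arrays.

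The dehydrogenases of the oxidative arm could not be compared. The single G6pdx probe (chrX:71654949-71655008) was detected on 0 of 9 arrays, with scaled log2 signals of 1.51 to 2.23 in AAV-V, 1.46 to 1.95 in AAV-GP73 and 1.05 to 2.15 in AAV-V HFD. These ranges overlapped. All 3 Pgd probes, at chr4:148534529-148534588, chr4:148524293-148524352 and chr4:148529609-148529668, were likewise detected on no array, and their processed signals before scaling were 1.24 to 3.75 units. A signal below the detection limit of these arrays does not show that G6pdx or Pgd was not expressed.

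Of the 4 member probes that were tested, Idh1 being left out, Taldo1 at base 1164 passed the call rule (adjusted p under 0.05 with the level changed 2-fold or more) in both comparisons with AAV-V and the other 3 did not. Taldo1 at base 1164 was detected on 1 AAV-V array and the other 3 on none. All 4 entered the test only through the brighter groups, which leaves little room for a call in the other direction. Over all probes tested, 51.9% were called in AAV-GP73 against AAV-V (34.0% higher and 17.9% lower) and 42.0% in AAV-V HFD against AAV-V (25.1% higher and 16.9% lower). A call was therefore common on these arrays. Idh1 is left out of the overlap with AAV-V as well, since its separation followed from its choice. Of the other 4, only Taldo1 at base 1164 did not overlap between AAV-GP73 and AAV-V, against 67.3% of all probes tested. Between AAV-V HFD and AAV-V, Taldo1 at base 1164 and Me1 at base 3168 did not overlap, against 56.1%. This Me1 probe was detected on no AAV-V array. In AAV-GP73 against AAV-V HFD, 2.67% of probes were called (2.09% higher and 0.576% lower) and 0 of the 4 member probes tested. Their adjusted p from limma ranged from 0.424 for Me1 to 0.898 for Taldo1 at base 693, and 0 of the 4 had an unadjusted p under 0.05, which 16.1% of all probes had. The arrays of these groups overlapped for all 5 member probes and did not overlap for 24.1% of all probes. There the measured differences were 1.13 for Me1 at base 3168, 0.18 and 0.12 for Taldo1 at bases 1164 and 693, and -0.22 for Tkt.

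**Figure D3:**
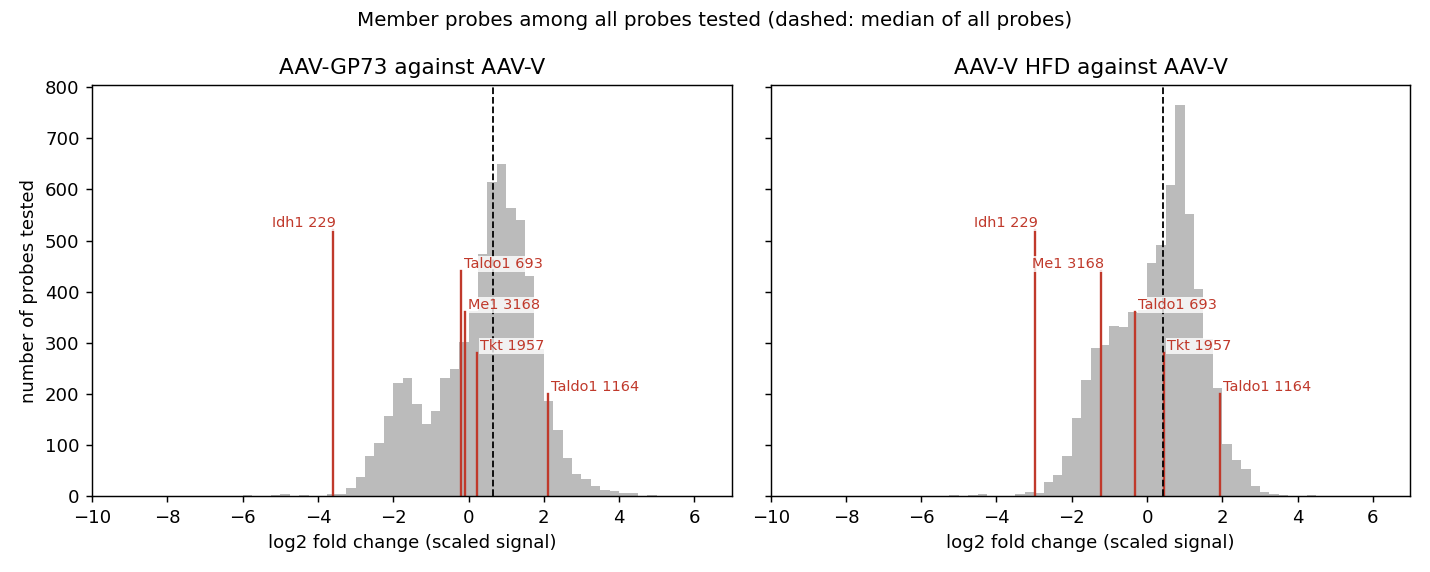
Histogram of the log2 fold change of all 6593 probes tested in AAV-GP73 (left) and AAV-V HFD (right) against AAV-V, with red lines at the 5 member probes, named by gene and transcript base, and a dashed line at the median of all probes (0.64 and 0.41). Idh1 at base 229 lies at the lower edge, at -3.61 and -2.98, and Taldo1 at base 1164 in the upper part, at 2.12 and 1.94.

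Markers of other cells were read beside the members. Summed over 5 erythroid markers, the scaled signal was 374 to 916 in AAV-V, 3320 to 16632 in AAV-GP73 and 615 to 1082 in AAV-V HFD, and 2, 4 and 2 of the 5 were detected on every array of the group. The log2 fold change of Hba-a1, an alpha globin gene, was 3.85 in AAV-GP73 (limma, adjusted p = 0.000214) and 0.68 in AAV-V HFD (adjusted p = 0.32). Whether the Idh1 difference depends on blood RNA was not tested. The summed signal of 5 hepatocyte markers was 6997 to 8797 in AAV-V, 6290 to 8137 in AAV-GP73 and 3389 to 5818 in AAV-V HFD. Within that list Cps1, a urea cycle enzyme, was called lower, at -1.59 in AAV-GP73 (limma, adjusted p = 0.0136) and by a difference of -2.03 in AAV-V HFD (adjusted p = 0.00497), Hnf4a, a hepatocyte transcription factor, was called higher, at 2.46 (adjusted p = 0.000154) and 1.40 (adjusted p = 0.00465), and Alb, Ttr and Apoa1 were not called. The summed signal of 6 macrophage markers was 130 to 143, 151 to 206 and 187 to 201 in the same order. Of the 4 endothelial markers only Clec4g was tested, and it was detected on no AAV-V array. It was called higher in AAV-GP73 (limma, adjusted p = 0.00177), while its log2 fold change of 0.44 in AAV-V HFD was not called (adjusted p = 0.52). Pecam1, which was not tested, had a mean scaled log2 signal of 3.74 in AAV-V, where 1 array detected it. Its means were 0.95 with AAV-GP73 and 0.74 with the high-fat diet, where no array detected it. Stab2 and Kdr, also not tested, overlapped between AAV-GP73 and AAV-V. Of the 5 stellate and fibroblast markers, Des was called lower, at -2.14 in AAV-GP73 (adjusted p = 0.00422) and -2.31 in AAV-V HFD (adjusted p = 0.00395), and Dcn was called higher in AAV-GP73, at 1.21 (adjusted p = 0.00283). No bile duct, lymphocyte or adipocyte gene was tested, but the lymphocyte sum of AAV-GP73 replicate 2 stood apart, through Ptprc at 177 units of scaled signal, where the 4 markers summed to at most 27.5 on any AAV-V array. The part of blood RNA and of cell makeup in the member differences was not tested.

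Genes of neighbouring routes were read from the brightest probe of each. Many of them were detected on no AAV-V array and so entered the test only through the groups where they were brighter. This leaves little room for a call in the other direction. Their counts and their adjusted p-values, here and below, are a description. Among the 2921 probes detected on all AAV-V arrays, which enter without the other groups, 14.5% passed as higher and 36.2% as lower in AAV-GP73, against 10.7% and 34.1% in AAV-V HFD. Over all probes tested these shares were 34.0% and 17.9% in AAV-GP73, and 25.1% and 16.9% in AAV-V HFD. For genes detected on no AAV-V array the shares called higher are too low a yardstick. Of the 6 mitochondrial NADPH genes 4 were tested, 2 of them detected on no AAV-V array, and 3 were called higher in AAV-GP73. Idh2, the mitochondrial counterpart of Idh1, was detected on no AAV-V array and was at least 3.55-fold higher with AAV-GP73 (limma, adjusted p = 0.000332) and at least 3.54-fold higher in AAV-V HFD (adjusted p = 0.000722). Such bounds, here and below, hold under the main scaling and background only. Over 6 settings of these the log2 fold change of Idh2 in AAV-GP73 was 0.13 to 3.84. Nnt, the transhydrogenase, was at least 1.16-fold higher with AAV-GP73 (adjusted p = 0.000183). Glud1, glutamate dehydrogenase, rose by 1.51 on the log2 scale in AAV-GP73, against 1.17 in AAV-V HFD. Nadk2, the mitochondrial NAD kinase, was detected on 1 AAV-V array and was not called, at 1.28 in AAV-GP73 (adjusted p = 0.0834) and 0.61 in AAV-V HFD (adjusted p = 0.41), and the malic enzymes Me2 and Me3 were not tested because they were detected on no array. In AAV-V HFD 3 of the 4 were called higher as well.

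In the folate pathway, which has steps that yield NADPH, 2 of 6 genes were tested. Mthfd1, detected on no AAV-V array, was at least 4.99-fold higher with AAV-GP73 (limma, adjusted p = 0.00016) and at least 3.15-fold higher in AAV-V HFD (adjusted p = 0.000981). Aldh1l1, detected on all of them, rose by 1.74 in AAV-GP73 (adjusted p = 0.00766), and its 0.88 in AAV-V HFD was not called (adjusted p = 0.133). Of the 3 subunits of the NAD-linked isocitrate dehydrogenase, which makes NADH and not NADPH, both that were tested were detected on no AAV-V array. Idh3g was at least 1.91-fold higher in AAV-GP73 and at least 1.58-fold higher in AAV-V HFD. Idh3b was called higher in AAV-GP73 and not in AAV-V HFD, with no lower bound above 1, and Idh3a was not tested.

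Of the 10 other genes of the pentose phosphate pathway and pentose supply, 5 were tested, 3 of them detected on no AAV-V array. In AAV-GP73, 4 were called higher and 0 lower, against 34.0% and 17.9% of all probes tested. In AAV-V HFD 3 were called higher and 0 lower, against 25.1% and 16.9%. Pgls, the gene of the list that was detected on all AAV-V arrays and whose product acts between G6PDX and PGD, rose by 1.13 in AAV-GP73 (limma, adjusted p = 0.0162) and by 1.20 in AAV-V HFD (adjusted p = 0.0145). H6pd, the dehydrogenase of the endoplasmic reticulum, was detected on 1 AAV-V array, rose by 1.35 in AAV-GP73 and was at 0.24 in AAV-V HFD (adjusted p = 0.659). Rbks and Prps1 were called higher in AAV-GP73, and Shpk and Prps1 in AAV-V HFD. These 3 genes were detected on no AAV-V array, and Shpk alone had a lower bound above 1, at least 1.02-fold. Rpia, Rpe, Tktl1, Tktl2 and Prps2 were not tested.

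Of 10 genes that carry or convert citrate, isocitrate and malate, 9 were tested, 5 of them detected on all AAV-V arrays. Of these 5, 3 rose and 2 fell in AAV-GP73, and of all 9 tested, 7 rose and 2 fell. The cytosolic malate dehydrogenase gene Mdh1 rose by 2.10 in AAV-GP73, against 1.84 in AAV-V HFD, mitochondrial Mdh2 by 1.81 and 1.82, and the pyruvate carboxylase gene Pcx, detected on 1 AAV-V array, by 1.95 and 2.01. The 2 that fell in AAV-GP73 are named after their values were seen. These were Slc25a1, the citrate carrier, at -1.19 (limma, adjusted p = 0.00839), and Acly, which splits citrate in the cytosol, at -1.06 (adjusted p = 0.0471). Both turned positive under spike-in scaling. In AAV-V HFD both also measured lower but were not called, Slc25a1 at -0.59 (limma, adjusted p = 0.147) and Acly at -1.03 (adjusted p = 0.0578). Neither was called between AAV-GP73 and AAV-V HFD, at -0.60 and -0.03. In AAV-V HFD 5 of the 9, and 2 of the 5, were called higher and 0 lower.

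Of 11 genes of fatty acid and sterol synthesis, 6 were tested, 4 of them detected on all AAV-V arrays. Of these 4, 3 fell in AAV-GP73, 4 fell in AAV-V HFD and 0 rose. Fasn, fatty acid synthase, was at least 19.2-fold lower with AAV-GP73 (limma, adjusted p = 1.31e-05), where it was detected on no array, and fell by 3.44 on the log2 scale in AAV-V HFD (adjusted p = 0.000189). Sc5d and Hsd17b12 fell by 1.25 and 1.22 in AAV-GP73, and both turned positive under spike-in scaling. In AAV-V HFD, Scd1, the stearoyl-CoA desaturase, fell by 3.15 (adjusted p = 0.00029), against -0.86 in AAV-GP73 (adjusted p = 0.0719). Tm7sf2 was also called lower in AAV-V HFD, but was detected on no array of AAV-V or AAV-V HFD, so that no fold is given.

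Of 11 genes that use NADPH for redox work and detoxification, 9 were tested, 5 of them detected on no AAV-V array and 3 on all. Of the 3, 1 was called higher in each comparison, and of the 9, 6 were called higher and 0 lower. Cryz, a quinone reductase, was at least 2.47-fold higher with AAV-GP73 (limma, adjusted p = 0.000387) and at least 2.62-fold higher in AAV-V HFD (adjusted p = 0.000703). Gsr, glutathione reductase, was at least 2.08-fold and at least 1.89-fold higher, and Txnrd1, the cytosolic thioredoxin reductase, at least 1.66-fold and at least 1.31-fold higher. These 3 genes were detected on no AAV-V array. Akr1a1, an aldehyde reductase that was detected on all of them, rose by 1.81 in AAV-GP73 and by 1.87 in AAV-V HFD. Txnrd2, also detected on no AAV-V array, was at least 1.04-fold higher in AAV-GP73. It was called higher in AAV-V HFD as well, with no lower bound above 1.

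The median of all probes tested was itself above 0 in both comparisons, at 0.64 and 0.41, and each rise stands against it. With normexp on an offset of 50, no rise of these source, supply and redox lists was called except Aldh1l1 in AAV-GP73. Many of these rises also turned negative there. In AAV-GP73, 8 of 9 redox genes then lay below 0, against 2 of 9 under the main setting. For the other pentose phosphate genes it was 4 of 5, against 0. AAV-V HFD gave the same counts for these 2 lists. Of the mitochondrial NADPH genes 2 of 4 lay below 0, and of the folate genes 0 of 2, whichever the comparison. The median of all probes tested was also below 0 with normexp. Fasn was called lower in both comparisons, and Scd1 in AAV-V HFD, under all 6 settings of scaling and background tried.

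**Figure D4:**
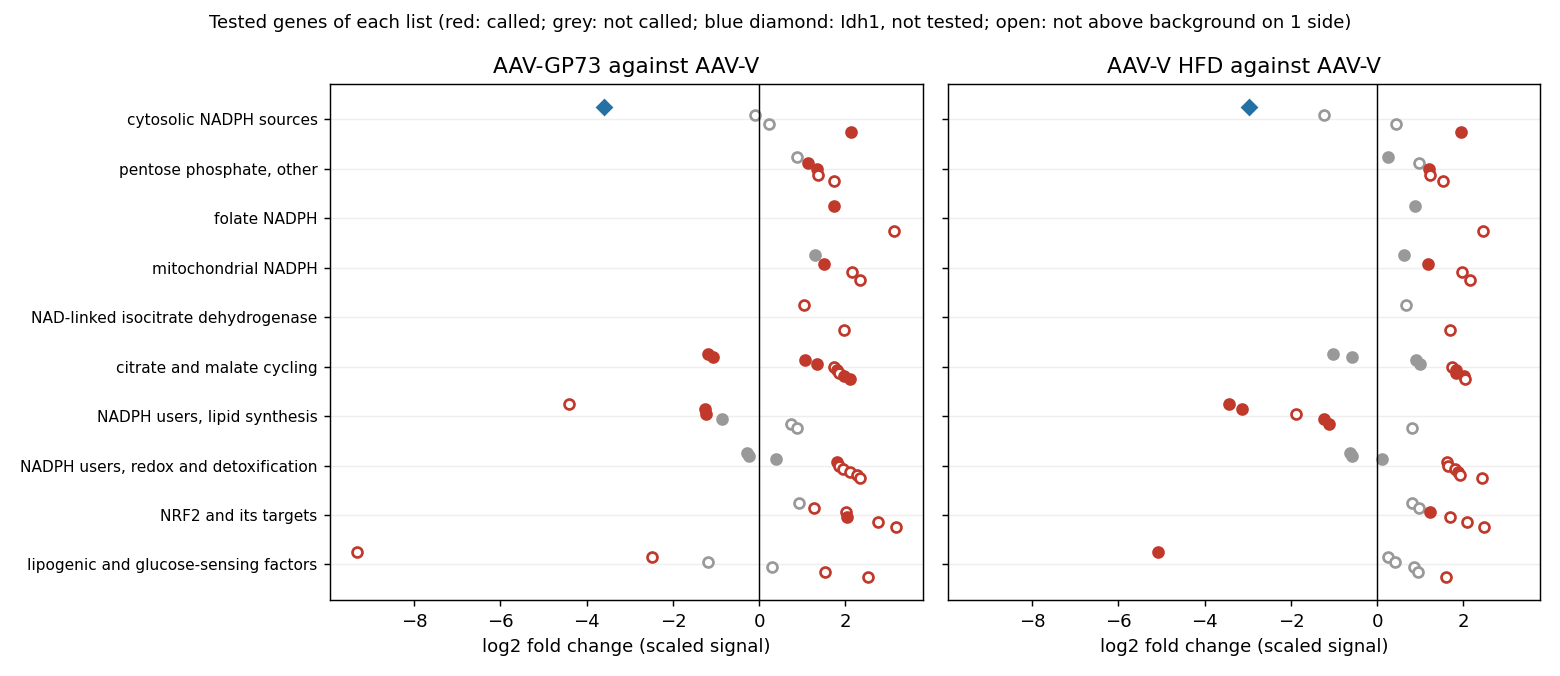
Log2 fold change of each tested gene, by list, in AAV-GP73 (left) and AAV-V HFD (right) against AAV-V, with red points for called genes, grey points for genes not called, a blue diamond for Idh1, which has no test, and open points for genes detected on no array of 1 group. Idh1 lies far left of the other NADPH sources, and Fasn is the lowest of the lipid synthesis genes, at -4.41 and -3.44.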

How the data were processed

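Liver RNA of 9 mice or pools was read on 1-colour Agilent arrays. The deposited intensity values are the authors' Feature Extraction output (version 12.0.3.1 in the file headers, 10.7 per the labels), background-subtracted by that program and not scaled between arrays. The authors' deposited log2 table was used as an alternative, and its normalization is not given in the sources used here. Each array held 62976 spots, 59305 of them not controls, of which 98 to 151 carried an outlier mark and 0 were saturated, and precision is limited by how few arrays there were. Coordinates (mm9) and gene names are those of the array files.

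Unmarked spots of a probe were averaged, the processed signal was divided by the 75th percentile over probes detected on all 9 arrays, and log2 was taken. Every probe was fitted by itself in limma 3.58.1 (R 4.3.3) over the 3 groups, with Benjamini-Hochberg adjustment over 6593 probes, after the fit was tested on simulated data. Groups came from the labels. A probe that was not well above background in 1 group has only a bound there: "at least N-fold" sets the bright group's mean against the dim group's mean of, per array, the higher of the lowest detected signal and the probe's own. The bound is that of the main scaling and background, and is not a minimum over the alternatives. Gene lists used the brightest probe of each gene, and named up to 4 called genes with the largest change in each comparison, or all genes of lists under 7. A gene that this rule would name is not reported here. The genes most like Idh1 were the 5 with the highest and the 5 with the lowest correlation. Alternatives were other scalings (all probes, quantile, 249 spike-in spots), normexp, the authors' table, other filters, 1 probe per gene, fewer groups, the methods' t-test, trend and robust eBayes, a replicate block and leaving out each array. Idh1 was left out of counts of called member probes and of the overlap of member probes with AAV-V. The members and lists were chosen with earlier results of these data known. Figures were drawn with matplotlib 3.10.9.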

Additional observations from a re-analysis of the deposited data

How the results depend on the processing

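Idh1 at base 229 was lower in AAV-GP73 and AAV-V HFD than in AAV-V under every alternative run. Its log2 fold change was -2.62 and -2.02 with all probes as the scale, -1.93 and -1.64 with spike-ins and -1.60 and -1.57 with normexp, and -4.02 to -3.23 and -3.39 to -2.59 with 1 array left out. Between AAV-GP73 and AAV-V HFD it was -0.03 with normexp and -0.996 to -0.41 with 1 array left out. Against AAV-V, 3420 probes were called in AAV-GP73 (65.5% of them higher) and 2766 in AAV-V HFD (59.8% higher). These counts were 5216 and 4506 with spike-ins (98.2% higher in both), 891 and 957 with normexp (17.1% and 8.46% higher), 46994 and 45019 without a filter (5.03% and 3.88%), and 1251 and 1087 over probes detected on all 9 arrays (34.5% and 29.3%). With 1 array left out they were 3096 to 3519 and 2397 to 2975, and the methods' t-test after Benjamini-Hochberg called 1697 in AAV-V HFD. In AAV-GP73 against AAV-V HFD, 176 probes were called, and 46 with quantile scaling, 372 with spike-ins, 46 with normexp, 27 in the authors' table, 72 without a filter, 69 over probes detected on all arrays, 390 and 13 by the methods' t-test before and after adjustment, and 38 to 191 with 1 array left out, the lowest without AAV-GP73 replicate 3. Of the 4 member probes tested, without Idh1, 1 was called against AAV-V in each comparison, 2 and 2 with all probes as the scale, 3 and 3 with spike-ins and 0 and 0 with normexp. The median of all probes tested moved to 2.32 and 1.75 with spike-ins and to -0.58 and -0.74 with normexp. Signs turned only in member probes that had not been called. In AAV-GP73 against AAV-V these were Me1 at base 3168 (0.89 with all probes, 1.58 with spike-ins, -0.42 to 0.12 with 1 array left out), Taldo1 at base 693 (0.79 and 1.47) and Tkt (-0.70 with normexp, -0.11 to 0.50 with 1 array left out). In AAV-V HFD they were Me1 at base 3168 (0.10 with spike-ins), Taldo1 at base 693 (0.62 and 1.00) and Tkt (-0.81 with normexp). In AAV-GP73 against AAV-V HFD they were Tkt (0.13 with spike-ins, 0.10 with normexp, -0.43 to 0.0096 with 1 array left out), Taldo1 at base 1164 (-0.015 to 0.35) and Taldo1 at base 693 (-0.090 to 0.45). The cause of these shifts was not tested. The replicate numbers share only a number (correlations of deviations from -0.10 to 0.17, with 2 of 9 over 0.1), and a replicate block gave 3418, 2779 and 121 called probes and 1, 1 and 0 of the 4 member probes. Signal over background limits the rest: 8 of the 13 member probes could not be tested.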

Other observations

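Genes around the members were read from lists that the comparisons above did not use. Of 10 genes of NRF2, the stress factor that drives several NADPH-linked genes, and its targets, 9 were on the array and 6 were tested. Of these 6, 5 were detected on no AAV-V array and entered the test only through the groups where they were brighter. Their counts and adjusted p-values are therefore a description. In AAV-GP73 against AAV-V 5 were called higher and 0 lower, where 34.0% of all probes tested were called higher, and in AAV-V HFD 4 were called higher, against 25.1%. Those shares include the probes detected on all AAV-V arrays, of which only 14.5% and 10.7% were called higher. They are therefore too low a yardstick for this list. Gclc and Gclm, the subunits of the enzyme that starts glutathione synthesis, were at least 1.85-fold and 2.52-fold higher, respectively, with AAV-GP73 (limma, adjusted p = 8.52e-05 and 0.000106). Ugdh, which makes UDP-glucuronate, was at least 2.96-fold higher, and Gstm1, a glutathione transferase that was detected on all AAV-V arrays, rose by 2.04 on the log2 scale in AAV-GP73 and by 1.23 in AAV-V HFD. With normexp none of the 6 was called, and the measured difference turned negative for 4 of them with AAV-GP73 and for 5 with the high-fat diet. Nfe2l2 and Keap1 were not tested.

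Of 8 genes that control fatty acid synthesis or sense glucose, 6 were tested, 5 of them detected on no AAV-V array. With AAV-GP73, 2 were called higher and 2 lower, where 34.0% of all probes tested were called higher and 17.9% lower. In AAV-V HFD 1 was called each way, against 25.1% and 16.9%. These counts are a description. Thrsp, a lipogenic nuclear protein, was at least 197-fold lower with AAV-GP73 (limma, adjusted p = 5.66e-08), where no array had it well above background, and fell by 5.07 in AAV-V HFD (adjusted p = 4.66e-05). Srebf1 was called lower in AAV-GP73, but was well above background on no array of AAV-V or AAV-GP73, so that no fold is given. Nr1h3, which encodes LXR alpha, was at least 2.01-fold higher in AAV-GP73 and at least 2.12-fold higher in AAV-V HFD, and Insig2, an inhibitor of SREBP processing, at least 1.21-fold higher in AAV-GP73. With normexp none of the 6 was called higher, Nr1h3 turned to -0.34 (AAV-GP73) and -0.35 (AAV-V HFD) and Insig2 to -0.41 in AAV-GP73, while Thrsp was called lower in both comparisons under all 6 settings of scaling and background.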
